A study of Saccharomyces cerevisiae with 18 samples.

Results

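The early meiotic chromosome and recombination genes of *Saccharomyces cerevisiae* are described here across 6 strains that differ at *IOC3* and *YAF9*. They were chosen by name, by a rule that uses no measured value, although earlier results of these data were known: *HOP1*, *RED1*, *ZIP1* and *REC8* for the structure of the meiotic chromosome, *SPO11*, *MEI4*, *REC104* and *MEK1* for recombination, and *NDJ1* and *SPO13* for telomere attachment and chromosome segregation. The table held 9 of these 10 genes among its 5830, and *MEK1* was not analysed here. All 9 had at least 1 CPM (reads scaled to the effective size of the library, which is its read total times a factor set by the authors) in at least 3 of the 18 libraries, the minimum set for a gene to be tested.

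In meiosis these proteins work together during prophase. Hop1, Red1 and the cohesin subunit Rec8 build the axis along which sister chromatids are looped, Spo11 and its partners cut the DNA to start recombination, and Zip1 then joins the paired homologs. In dividing cells the early meiotic genes are held off. Ume6 binds a promoter element called URS1 and brings the Sin3-Rpd3 histone deacetylase and the Isw2 remodeler, and on starvation of a diploid cell Ime1 turns the same element into an activating one. The cultures measured here were dividing, in rich medium, so the values concern the low vegetative level of these genes and not meiosis.

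RNA was sequenced from a strain with wild-type Ioc3, from a strain lacking Ioc3 (*ioc3*Δ), from a strain whose Ioc3 has a truncated HLB domain, the helical part that contacts linker DNA (*ioc3*Δ*cHLB*), and from the same 3 *IOC3* forms without Yaf9 (*yaf9*Δ with wild-type Ioc3, then *ioc3*Δ*cHLB yaf9*Δ and the double deletion *ioc3*Δ *yaf9*Δ). Ioc3 is the accessory subunit of the ISW1a nucleosome remodeler, and Yaf9 is shared by the NuA4 histone acetyltransferase and the SWR1 complex. All samples were labelled as BY4742, a haploid laboratory strain, with a FLAG tag, and cultures in YPD reached an OD600 of about 0.7 to 0.9, with 3 independent biological replicates per strain. The design asks what each form of Ioc3 does to expression with Yaf9 and without it.

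Libraries held 5145170 to 10192972 reads, so that 1 read was worth 0.0854 to 0.2011 CPM and 3 reads 0.256 to 0.603 CPM. The deleted genes were as labelled. *IOC3* had 1426 reads over the wild-type libraries, 2 in *ioc3*Δ and 1 in *ioc3*Δ *yaf9*Δ, and *YAF9* had 803 in wild type, 3 in *yaf9*Δ and 0 in both double mutants. In *ioc3*Δ*cHLB* reads of the *IOC3* gene stood at 64.9 ± 5.5 CPM (SD, n = 3) against 60.1 ± 2.1 CPM in wild type, a count over the whole gene that does not check the truncation. The cells did not carry the mating-type transcripts known for BY4742, which is MATα: the 5 **a**-cell markers summed to 1979 CPM or more in every library, while the 3 α-cell markers summed to between 1.84 and 15.1 CPM. The α marker *STE3*, the **a**-factor receptor gene, stood at 1.29 ± 0.38 CPM in wild type, 12.1 ± 2.4 CPM in *ioc3*Δ and 7.10 ± 0.37 CPM in *ioc3*Δ*cHLB*. The markers of middle and late sporulation, 10 genes used after the steps described here, summed to between 38.3 and 73.3 CPM in every library, none of them was at 0 in all libraries of a strain, and their sums by strain are given beside the results below.

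The URS1 element is the sequence these genes are best known to share, so its core was searched for. The letters GGCGGC, read on both strands in the 300 bases before the start codon, were found for 7 of the 9 genes, for 7 of 15 other early meiotic genes and for 285 of 5631 annotated genes (5.06%). *SPO11* and *RED1* had no match in that window. The matches below are from the reference genome of the same build as the data (sacCer3), on the coding strand of each gene and 5′ to 3′, with the matched bases in capitals. They are shown because *HOP1*, *MEI4*, *NDJ1*, *ZIP1* and *REC8* are the genes that changed in at least 1 comparison, and *SPO13* and *REC104* are matches in genes that did not.
HOP1 (chrIX:226419-226448, plus strand, 171 to 166 bases before the start codon): gtttttaacctgGGCGGCtaaattgtactt
MEI4 (chrV:239853-239882, minus strand, 96 to 91 bases before): tatatattgctgGGCGGCtaaatgtttccg
NDJ1 (chrXV:117525-117554, minus strand, 88 to 83 bases before): gcgtagaagttgGGCGGCtattttgacaga
ZIP1 (chrIV:1032404-1032433, plus strand, 20 to 15 bases before): taaaataccctcGGCGGCtaaatttttaga
REC8 (chrXVI:571545-571574, minus strand, 184 to 179 bases before): gaacttgacttcGGCGGCaaaccaatatat
REC104 (chrVIII:412804-412833, plus strand, 91 to 86 bases before): cgcacaatatttGGCGGCtattttccgcta
SPO13 (chrVIII:131940-131969, plus strand, match on the opposite strand, 95 to 90 bases before): tattgagaaataGCCGCCgacaaaaaggaa
The longer form TCGGCGGCT, which contains the core, was present before *SPO13* and *ZIP1* and before 0.586% of all genes. The letters TGTGAAGTG, described as an activating element (UASH) of early meiotic genes, were present in the window of *HOP1* alone among the 9 genes. They were present for 0 of the 15 other early meiotic genes and for 0.426% of all genes. The match of *HOP1* lies just upstream of its URS1 core.
HOP1 (chrIX:226392-226421, plus strand, 198 to 190 bases before the start codon): ggaagatctacgTGTGAAGTGatatatgtt
A match describes the letters only, and no binding was measured in these samples.

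All 9 genes were weakly expressed. Scaled by coding length, the mean over the 18 libraries ran from 0.749 CPM per kb for *REC8* to 14.4 CPM per kb for *NDJ1*, against a median of 41.2 CPM per kb over 5633 genes. Between these lay *SPO13* (1.32 CPM per kb), *SPO11* (2.73), *HOP1* (2.83), *MEI4* (4.11), *ZIP1* (6.03), *REC104* (6.19) and *RED1* (7.30). *REC8* exceeded only 0.710% of genes by this measure, and *NDJ1* exceeded 19.8%. Single libraries held between 1 and 33 reads of *REC8*, 3 and 17 of *SPO13*, 12 and 81 of *HOP1*, and 92 and 225 of *RED1*, so counting error alone is large for the weakest genes.

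**Figure D1:**
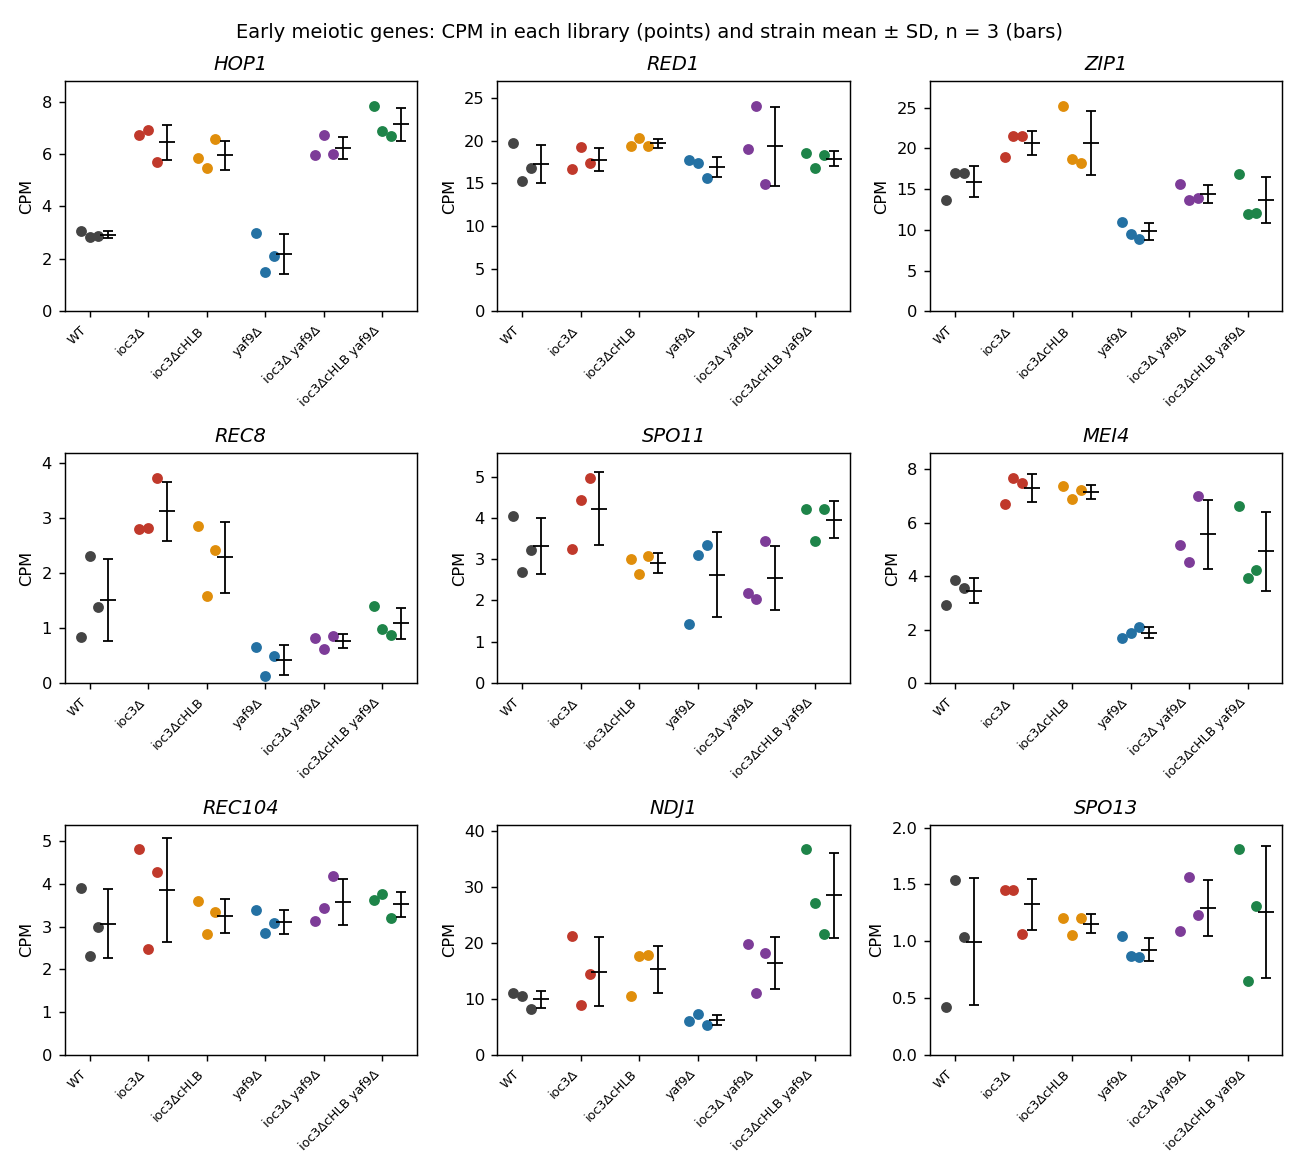
CPM (y axis, starting at 0, with its own scale in each panel) of the 9 genes in each of the 18 libraries, with points for libraries and bars for the strain mean ± SD (n = 3). *HOP1* is at or under 3.07 CPM in every wild-type and *yaf9*Δ library and at or above 5.46 CPM in every library of the other 4 strains, while for *RED1*, *REC104* and *SPO13* each strain overlaps the next in rank.

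Among the genes of the chromosome axis, *HOP1* (YIL072W, chromosome IX, 226602 to 228419, plus strand, 1 coding exon) separated the strains with an altered *IOC3* from the others. Its HORMA-domain protein coats the axis and directs repair of meiotic breaks to the homolog. *HOP1* was measured at 3.07, 2.82 and 2.87 CPM in wild type and at 3.0, 1.49 and 2.10 CPM in *yaf9*Δ. It was measured at 6.71, 6.92 and 5.69 CPM in *ioc3*Δ and at 5.86, 5.46 and 6.56 CPM in *ioc3*Δ*cHLB*. Without Yaf9, *HOP1* was at 5.98, 6.72 and 6.01 CPM in *ioc3*Δ *yaf9*Δ and at 7.84, 6.86 and 6.69 CPM for *ioc3*Δ*cHLB yaf9*Δ. The 12 libraries with an altered *IOC3* thus all lay above the 6 with a wild-type *IOC3*. Among the 4 altered strains each overlapped its neighbour in rank. The share of all genes that separate in this way was not counted, here or for the genes below. The same libraries enter the tests further on.

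*RED1* (YLR263W, chromosome XII, 670340 to 672823, plus strand), which encodes the axis protein that recruits Hop1, showed no such separation. Its libraries ranged from 14.8 to 24.1 CPM, both extremes being *ioc3*Δ *yaf9*Δ libraries. Strain means ran from 16.9 ± 1.2 CPM in *yaf9*Δ to 19.7 ± 0.5 CPM in *ioc3*Δ*cHLB*, and every strain overlapped the next in rank.

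*ZIP1* (YDR285W, chromosome IV, 1032436 to 1035063, plus strand) encodes the transverse filament of the synaptonemal complex. It stood at 13.7, 17.0 and 17.0 CPM in wild type, at 18.9, 21.5 and 21.5 CPM in *ioc3*Δ and at 25.2, 18.7 and 18.2 CPM in *ioc3*Δ*cHLB*. Without Yaf9 it stood at 11.0, 9.54 and 8.90 CPM in *yaf9*Δ, at 15.6, 13.6 and 13.9 CPM in *ioc3*Δ *yaf9*Δ and at 16.9, 11.9 and 12.1 CPM for *ioc3*Δ*cHLB yaf9*Δ. The *yaf9*Δ libraries were the lowest of all, the double mutants overlapped wild type, and the single *IOC3* mutants lay above it.

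*REC8* (YPR007C, chromosome XVI, 569336 to 571378, minus strand), the meiotic kleisin that replaces Mcd1 in cohesin, was the weakest gene per coding length. It had 6, 18 and 12 reads in wild type (0.837, 2.30 and 1.38 CPM), 25, 33 and 21 reads in *ioc3*Δ (2.79, 2.82 and 3.73 CPM) and 19, 9 and 18 reads in *ioc3*Δ*cHLB* (2.85, 1.59 and 2.41 CPM). In *yaf9*Δ it had 5, 1 and 4 reads (0.653, 0.124 and 0.494 CPM), in *ioc3*Δ *yaf9*Δ 6, 4 and 7 reads (0.815, 0.625 and 0.859 CPM) and in *ioc3*Δ*cHLB yaf9*Δ 7, 6 and 6 reads (1.41, 0.980 and 0.873 CPM). Unlike *HOP1*, it was highest in *ioc3*Δ and stayed at or under 1.41 CPM in every library without Yaf9.

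Of the genes for break formation, *MEI4* (YER044C-A, chromosome V, 238460 to 239774, minus strand, 2 coding exons) varied most. Mei4 acts with Rec114 and Mer2 to promote cutting by Spo11. *MEI4* was measured at 2.93, 3.84 and 3.56 CPM in wild type, at 6.71, 7.69 and 7.47 CPM in *ioc3*Δ and at 7.36, 6.87 and 7.23 CPM in *ioc3*Δ*cHLB*. Without Yaf9 it was measured at 1.70, 1.86 and 2.10 CPM in *yaf9*Δ, at 5.16, 4.53 and 7.0 CPM in *ioc3*Δ *yaf9*Δ and at 6.64, 3.92 and 4.22 CPM for *ioc3*Δ*cHLB yaf9*Δ. As with *HOP1*, all libraries with an altered *IOC3* lay above all those with a wild-type *IOC3*, and here *yaf9*Δ also lay wholly below wild type.

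*SPO11* (YHL022C, chromosome VIII, 62961 to 64157, minus strand), whose topoisomerase-like product makes the breaks, ranged from 1.44 CPM in a *yaf9*Δ library to 4.98 CPM in an *ioc3*Δ library. Its strain means ran from 2.55 ± 0.77 CPM in *ioc3*Δ *yaf9*Δ to 4.22 ± 0.89 CPM in *ioc3*Δ. *REC104* (YHR157W, chromosome VIII, 412907 to 413455, plus strand), a further partner of Spo11, ranged from 2.30 to 4.81 CPM with means between 3.07 ± 0.80 CPM in wild type and 3.85 ± 1.22 CPM in *ioc3*Δ. For both genes every strain overlapped its neighbour in rank.

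*NDJ1* (YOL104C, chromosome XV, 116396 to 117454, minus strand), whose product ties telomeres to the nuclear envelope in meiotic prophase, was the most strongly expressed of the 9 per length and varied widely between replicates. It stood at 11.0, 10.5 and 8.28 CPM in wild type, at 21.4, 8.97 and 14.4 CPM in *ioc3*Δ and at 10.5, 17.6 and 17.9 CPM in *ioc3*Δ*cHLB*. Without Yaf9 it stood at 6.01, 7.31 and 5.44 CPM in *yaf9*Δ, at 19.8, 11.1 and 18.3 CPM in *ioc3*Δ *yaf9*Δ and at 36.8, 27.1 and 21.7 CPM for *ioc3*Δ*cHLB yaf9*Δ. The 3 *yaf9*Δ libraries were thus the lowest and the 3 *ioc3*Δ*cHLB yaf9*Δ libraries the highest of the 18, while each of the other strains overlapped the next in rank. *SPO13* (YHR014W, chromosome VIII, 132047 to 132922, plus strand), which keeps sister chromatids together in the first division, stayed between 0.419 and 1.81 CPM, and each strain overlapped the next in rank.

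In *ioc3*Δ, *HOP1*, *MEI4* and *REC8* rose against wild type and none of the 9 genes fell. *HOP1* went from 2.92 ± 0.13 to 6.44 ± 0.66 CPM (SD, n = 3), a change of 0.92 ± 0.16 (SE) on the log2(CPM + 1) scale (limma, adjusted p = 0.00109). *MEI4* went from 3.45 ± 0.47 to 7.29 ± 0.51 CPM (0.90 ± 0.17, adjusted p = 0.00294), and *REC8* from 1.51 ± 0.74 to 3.12 ± 0.53 CPM (0.75 ± 0.22, adjusted p = 0.0286). A call needed an adjusted p under 0.1 over all 5786 genes tested and a change of at least 1.5-fold on the log2(CPM + 1) scale. Of those genes 9.04% were called higher here and 3.11% lower. The call of *REC8* was lost without wild-type library 1 (0.55, adjusted p = 0.128) or without *ioc3*Δ library 3 (0.64, adjusted p = 0.112).

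The remaining 6 genes had estimates above 0 but did not pass the test. *ZIP1* had no overlap between the strains at 0.36 ± 0.15 (adjusted p = 0.109), and *NDJ1* was at 0.47 ± 0.28 (adjusted p = 0.26). *NDJ1* passed without *ioc3*Δ library 2, its low one (0.77, adjusted p = 0.0682). *SPO11*, *SPO13*, *REC104* and *RED1* lay between 0.05 and 0.27. The median over the 9 genes was 0.36, against 0.01 over all genes tested, and 4 of the 9 had no overlap upwards, against 19.6% of all genes. Sums of the middle and late sporulation markers were also higher, between 68.3 and 73.0 CPM against 44.8 to 47.6 CPM in wild type. Of these markers 4 of 10 were called higher (*SPR3*, *DIT1*, *NDT80* and *DIT2*). Of the 3 α-cell markers 1 was called, *STE3*, higher by 2.51 ± 0.29. Their part in the result was not tested. A larger share of cells expressing these genes and more RNA per cell cannot be told apart in bulk RNA.

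In *ioc3*Δ*cHLB*, *HOP1* and *MEI4* rose, to 5.96 ± 0.55 CPM (0.83 ± 0.16, limma adjusted p = 0.0306) and 7.15 ± 0.25 CPM (0.88 ± 0.17, adjusted p = 0.0395). They were 2 of 9 where 0.328% of all genes were called higher, 19 genes in all. The *ioc3*Δ comparison uses the same wild-type libraries, so these rises are not a second measurement of the wild-type level. Both calls were lost when wild-type library 1, wild-type library 3 or *ioc3*Δ*cHLB* library 3 was left out (adjusted p between 0.102 and 0.219) and when only these 6 libraries entered the fit (0.167 for *HOP1*, 0.16 for *MEI4*). Leaving out *ioc3*Δ*cHLB* library 1 or 2 ended the call of *MEI4* alone (0.113 and 0.118). The changes themselves stayed between 0.76 and 1.03 for *HOP1* and between 0.79 and 1.05 for *MEI4* in all alternatives.

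*NDJ1* (0.55 ± 0.28, adjusted p = 0.97), *REC8* (0.41 ± 0.22, 0.997) and *ZIP1* (0.35 ± 0.15, 0.776) did not pass in *ioc3*Δ*cHLB*, and *ZIP1* was the third gene without overlap, where 5.39% of all genes had none. *SPO11* was the only gene with an estimate below 0, at −0.13. Sporulation marker sums lay between 67.6 and 73.3 CPM, above wild type as in *ioc3*Δ, with 0 of 10 called by limma. Of the 3 α-cell markers 1 was called, *STE3*, higher by 1.83 ± 0.29. Their part in the result was not tested.

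**Figure D2:**
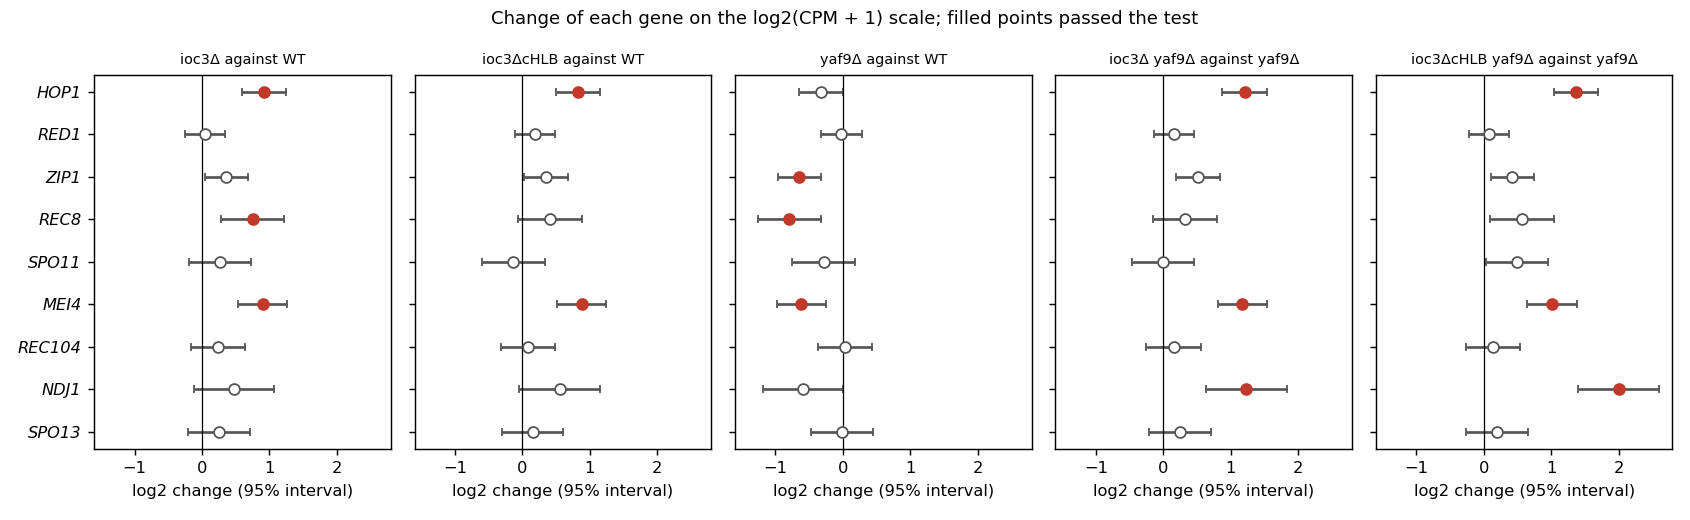
Change of each gene on the log2(CPM + 1) scale (x axis) with its 95% interval in 5 comparisons, with filled points for genes that passed the test. *HOP1* and *MEI4* pass as higher in 4 panels at 0.83 to 1.37, *NDJ1* passes only in the 2 panels against *yaf9*Δ, and *RED1*, *SPO11*, *REC104* and *SPO13* pass in none.

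In *yaf9*Δ the direction was the opposite. *REC8*, *ZIP1* and *MEI4* fell against wild type and none of the 9 genes rose. *REC8* changed by −0.79 ± 0.22 (1.51 ± 0.74 to 0.424 ± 0.272 CPM, limma adjusted p = 0.0343), *ZIP1* by −0.64 ± 0.15 (15.9 ± 1.9 to 9.80 ± 1.06 CPM, 0.0152) and *MEI4* by −0.62 ± 0.17 (3.45 ± 0.47 to 1.89 ± 0.20 CPM, 0.0318). They were 3 of 9 where 3.61% of genes were called lower and 3.91% higher. The value of *REC8* rests on 36 reads in wild type and 10 in *yaf9*Δ and depends on the scale, reaching −1.84 among the alternatives.

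Without wild-type library 2 the calls of *REC8* (−0.57, adjusted p = 0.155) and *MEI4* (−0.56, 0.11) were lost and *ZIP1* alone remained. The calls were also lost for *REC8* without *yaf9*Δ library 2 (−0.63, 0.143) and for *MEI4* without *yaf9*Δ library 1 (−0.57, 0.118). Without *yaf9*Δ library 3, *ZIP1* fell short of 1.5-fold on the log2(CPM + 1) scale and lost its call (−0.58, 0.0711). *NDJ1* had no overlap at −0.59 ± 0.28 (adjusted p = 0.196) and passed when only the 6 libraries compared entered the fit (0.0384). It made 4 of 9 genes without overlap downwards, against 20.7% of all genes. *HOP1*, at −0.32 ± 0.16 (0.201), overlapped wild type. The sporulation markers summed to between 38.3 and 47.1 CPM, overlapping wild type, with *SSP1* and *DIT1* called lower. Of the 3 α-cell markers 2 were called higher, the α-factor genes *MFALPHA1* (1.29 ± 0.30) and *MFALPHA2* (0.88 ± 0.28). The remaining one, *STE3*, was not called and did not have a positive estimate. The 3 α-cell markers summed to only 3.66 to 7.17 CPM in *yaf9*Δ. Of the 5 **a**-cell markers 1 was called higher, the **a**-factor gene *MFA2* (0.66 ± 0.12). The part of these markers in the result was not tested.

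Removal of Ioc3 from cells already lacking Yaf9 raised *HOP1*, *NDJ1* and *MEI4*. In *ioc3*Δ *yaf9*Δ against *yaf9*Δ, *HOP1* went from 2.20 ± 0.76 to 6.24 ± 0.42 CPM (1.20 ± 0.16, limma adjusted p = 0.000114), *NDJ1* from 6.25 ± 0.96 to 16.4 ± 4.7 CPM (1.23 ± 0.28, 0.0101) and *MEI4* from 1.89 ± 0.20 to 5.56 ± 1.28 CPM (1.17 ± 0.17, 0.00037). These were 3 of 9, where 3.53% of genes were called higher. *ZIP1* had no overlap and an adjusted p of 0.0372 but, at 0.51 ± 0.15, was short of 1.5-fold on the log2(CPM + 1) scale. It passed without *yaf9*Δ library 1 (0.59, 0.0597). *REC8* was at 0.33 ± 0.22 (0.351), and *SPO13*, *RED1*, *REC104* and *SPO11* lay between −0.01 and 0.25. Of the 9 genes 5 had no overlap upwards, against 20% of all genes.

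The HLB truncation in the same background raised the same 3 genes. In *ioc3*Δ*cHLB yaf9*Δ against *yaf9*Δ, *NDJ1* reached 28.5 ± 7.7 CPM (2.0 ± 0.28, limma adjusted p = 0.00131), *HOP1* 7.13 ± 0.62 CPM (1.37 ± 0.16, 0.000233) and *MEI4* 4.92 ± 1.49 CPM (1.01 ± 0.17, 0.00305). The background of genes called higher was 2.0%, and 6 of the 9 genes had no overlap upwards, against 15.7%. *REC8* (0.56 ± 0.22, 0.174), *SPO11* (0.49 ± 0.22, 0.222) and *ZIP1* (0.43 ± 0.15, 0.129) did not pass. Both comparisons use the same *yaf9*Δ libraries, which were also the low side of the comparison of *yaf9*Δ with wild type. The calls of *HOP1*, *NDJ1* and *MEI4* in both held in every alternative, each left-out library included, with adjusted p between 5.85e-09 and 0.0628. The sporulation markers summed to between 44.2 and 52.8 CPM in *ioc3*Δ *yaf9*Δ, with 3 of 10 called higher. They summed to between 45.6 and 61.2 CPM for *ioc3*Δ*cHLB yaf9*Δ, with 2 of 10 called higher. Of the 3 α-cell markers, 0 were called in *ioc3*Δ *yaf9*Δ and 1 was called higher for *ioc3*Δ*cHLB yaf9*Δ. Their part in the result was not tested.

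Against wild type rather than *yaf9*Δ, fewer of these genes passed by limma in the double mutants. In *ioc3*Δ *yaf9*Δ, *HOP1* alone was called (0.88 ± 0.16, limma adjusted p = 0.00118), where 5.95% of genes were called higher. *MEI4* had means of 3.45 ± 0.47 CPM in wild type and 5.56 ± 1.28 CPM in *ioc3*Δ *yaf9*Δ. It was short of 1.5-fold on the log2(CPM + 1) scale (0.55 ± 0.17, 0.0357) and passed with edgeR (0.70, 0.0321) and DESeq2 (0.73, 0.0397). *NDJ1*, at 0.64 ± 0.28 (0.136), passed with DESeq2 (0.76, 0.069) and without *ioc3*Δ *yaf9*Δ library 2 (0.88, 0.0592). In *ioc3*Δ*cHLB yaf9*Δ, *HOP1* (1.05 ± 0.16, 0.000475) and *NDJ1* (1.41 ± 0.28, 0.00427) were called, where 4.10% of genes were called higher, and *MEI4* was at 0.39 ± 0.17 (0.141). *ZIP1* and *REC8*, which had fallen in *yaf9*Δ, were between −0.47 and −0.13 in both double mutants and did not pass. Without wild-type library 1, however, *REC8* passed as lower in *ioc3*Δ *yaf9*Δ (−0.67, 0.066). In each double mutant 2 of the 3 α-cell markers were called higher, and of the 10 sporulation markers 1 was called higher and 1 lower. Of all genes 6.38% were called lower in *ioc3*Δ *yaf9*Δ and 4.77% in *ioc3*Δ*cHLB yaf9*Δ. Of the 5 **a**-cell markers 1 was called higher in *ioc3*Δ *yaf9*Δ and 0 in *ioc3*Δ*cHLB yaf9*Δ. The part of these markers was not tested.

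**Figure D3:**
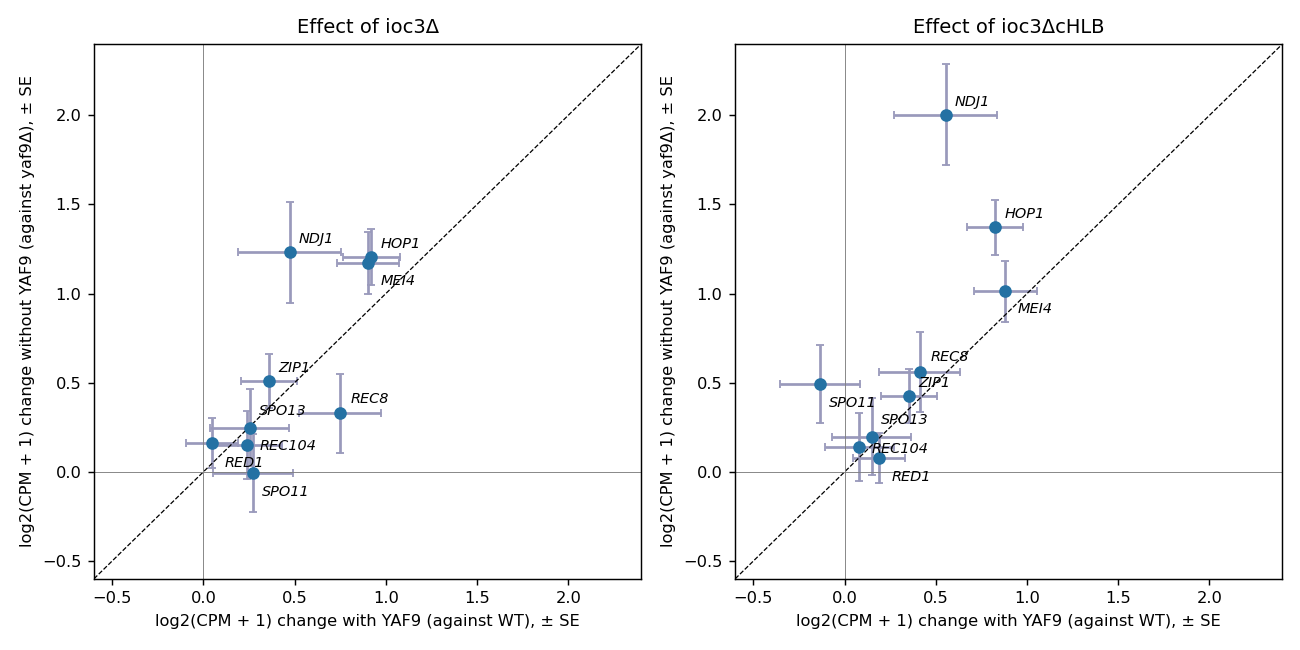
Change of each gene with Yaf9 present (x axis, against wild type) and with Yaf9 absent (y axis, against *yaf9*Δ), on the log2(CPM + 1) scale with SE bars, for *ioc3*Δ (left) and *ioc3*Δ*cHLB* (right). The dashed line marks equal changes. *NDJ1* lies farthest above the line, at 0.55 and 2.0 in the right panel, and *REC8* lies below it in the left panel, at 0.75 and 0.33.

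Whether the effect of Ioc3 depended on Yaf9 was tested as the difference between these changes. For the deletion none of the 9 genes passed by limma, edgeR or DESeq2, and 0 had an unadjusted p under 0.05, where 9.38% of all genes were called in either direction. The difference was 0.28 for *HOP1* (95% interval −0.18 to 0.75), 0.27 for *MEI4* (−0.25 to 0.78), 0.76 for *NDJ1* (−0.09 to 1.61) and −0.42 for *REC8* (−1.09 to 0.25). For the truncation 0 of 9 passed by limma and edgeR, where 0.121% of all genes were called, but *HOP1* and *NDJ1* had an unadjusted p under 0.05. *NDJ1* changed by 1.45 more without Yaf9 (0.60 to 2.30, limma adjusted p = 0.299) and passed with DESeq2 (1.57, 0.0875). The difference for *HOP1* was 0.55 (0.08 to 1.01, adjusted p = 0.638).

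The truncation and the deletion were also compared directly. With Yaf9, 0 of 9 genes passed by limma, edgeR or DESeq2 and 0 had an unadjusted p under 0.05, where 9.99% of all genes were called in either direction. The difference of *ioc3*Δ*cHLB* from *ioc3*Δ was −0.10 for *HOP1* (95% interval −0.42 to 0.23), −0.02 for *MEI4* (−0.39 to 0.34), 0.08 for *NDJ1* (−0.52 to 0.68) and −0.34 for *REC8* (−0.81 to 0.14). For *HOP1* and *MEI4* a difference of 1.5-fold on the log2(CPM + 1) scale therefore lay outside the interval in both directions. *SPO11* was lower in every *ioc3*Δ*cHLB* library than in every *ioc3*Δ library, at −0.40 (−0.87 to 0.06). *RED1* was higher in every one, at 0.14 (−0.16 to 0.44). The share of all genes without overlap is not given for this comparison.

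Without Yaf9, 0 of 9 passed by limma and edgeR, where 4.80% of genes were called, and 2 had an unadjusted p under 0.05. *NDJ1* was higher in every *ioc3*Δ*cHLB yaf9*Δ library than in every *ioc3*Δ *yaf9*Δ library, by 0.77 (0.17 to 1.37, limma adjusted p = 0.121). It passed with DESeq2 (0.78, 0.0826). *REC8* was without overlap in the same direction, by 0.23 (−0.24 to 0.71). The share of all genes without overlap is not given for this comparison either. *SPO11* differed by 0.50 (0.04 to 0.96, adjusted p = 0.18) with overlapping libraries. It passed without *ioc3*Δ *yaf9*Δ library 3 (0.67, 0.099). The difference was 0.17 for *HOP1* (−0.16 to 0.49) and −0.16 for *MEI4* (−0.52 to 0.21).

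*HOP1* diverges from *SPO22* (also called *ZIP4*), a crossover factor of the synapsis initiation complex. The genes have 647 bases between them, and the URS1 core stands on the *SPO22* side as well.
SPO22 (chrIX:226061-226090, minus strand, 124 to 119 bases before the start codon): aatacaaacttcGGCGGCtaattgcaaata
*SPO22* stood at 10.2 ± 0.9 CPM in wild type, 16.8 ± 0.3 CPM in *ioc3*Δ, 15.5 ± 1.8 CPM in *ioc3*Δ*cHLB*, 4.37 ± 0.35 CPM in *yaf9*Δ, 12.5 ± 1.8 CPM in *ioc3*Δ *yaf9*Δ and, with the truncation and no Yaf9, 10.5 ± 3.5 CPM. It was called higher in *ioc3*Δ (0.68 ± 0.17, limma adjusted p = 0.0134), lower in *yaf9*Δ (−1.05 ± 0.17, 0.00127) and higher in both double mutants against *yaf9*Δ (1.32 ± 0.17, 0.000114, and 1.05 ± 0.17, 0.00259).

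Of 15 measured neighbours of the 9 genes, 2 were called higher in *ioc3*Δ (*SPO22* and *MGP12*, which converges on *ZIP1*), where 9.04% of all genes were, and 0 in *ioc3*Δ*cHLB*. *SPO22* and the Ty open reading frame YOL103W-B, divergent from *NDJ1* by 545 bases, were called higher in both double mutants against *yaf9*Δ, where 3.53% and 2.0% of all genes were. YOL103W-B changed by 0.80 (adjusted p = 0.0769) and 1.22 (0.0244), and its reads could be shared with other Ty copies. *DPP1*, which diverges from *ZIP1*, was called lower in *ioc3*Δ *yaf9*Δ against *yaf9*Δ (−0.60, 0.0477), where 6.17% of all genes were. No annotated gene overlapped any of the 9 genes.

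The other early meiotic genes moved in part with these. Of 23 genes listed, 15 were in the table and 14 were tested. In *ioc3*Δ 4 rose, *ZIP2* (1.07 ± 0.28, adjusted p = 0.0153), *GMC1* (0.73 ± 0.21, 0.0212), the Dmc1 cofactor gene *HOP2* (0.70 ± 0.19, 0.0179) and *SPO22*. In that comparison 9.04% of all genes were called higher. *ZIP2*, a partner of Spo22, stood at 1.82 ± 0.02 CPM in wild type and 4.94 ± 0.67 CPM in *ioc3*Δ. None of the 14 passed in *ioc3*Δ*cHLB*. In *yaf9*Δ, *SPO22* fell and *SPO16*, a further member of the same complex, rose by 0.62 ± 0.18 (0.0383). Of all genes 3.61% were called lower there and 3.91% higher.

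Against *yaf9*Δ, *SPO22*, *ZIP2* (0.72 ± 0.28, 0.0941) and the crossover helicase gene *HFM1* (0.67 ± 0.14, 0.00569) rose in *ioc3*Δ *yaf9*Δ. *SPO22* and the MutS homolog gene *MSH5* (0.63 ± 0.14, 0.0138) rose in *ioc3*Δ*cHLB yaf9*Δ. Of all genes 3.53% were called higher and 6.17% lower in the first comparison, and 2.0% and 2.63% in the second. *CST9* (also called *ZIP3*) went the other way, falling by 0.61 and 0.60 against *yaf9*Δ (0.00719 and 0.0156). Its level was 26.3 ± 1.8 CPM in wild type, 18.5 ± 2.2 CPM in *yaf9*Δ, and 11.8 ± 1.9 and 11.8 ± 1.3 CPM in the double mutants. The medians of the 14 genes were 0.20 in *ioc3*Δ, 0.21 in *ioc3*Δ*cHLB*, −0.27 in *yaf9*Δ, 0.24 in *ioc3*Δ *yaf9*Δ against *yaf9*Δ and 0.25 in *ioc3*Δ*cHLB yaf9*Δ against *yaf9*Δ. All medians over all genes tested lay between −0.01 and 0.01 in these comparisons. The corresponding medians of the 9 genes were 0.36, 0.35, −0.32, 0.33 and 0.49.

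**Figure D4:**
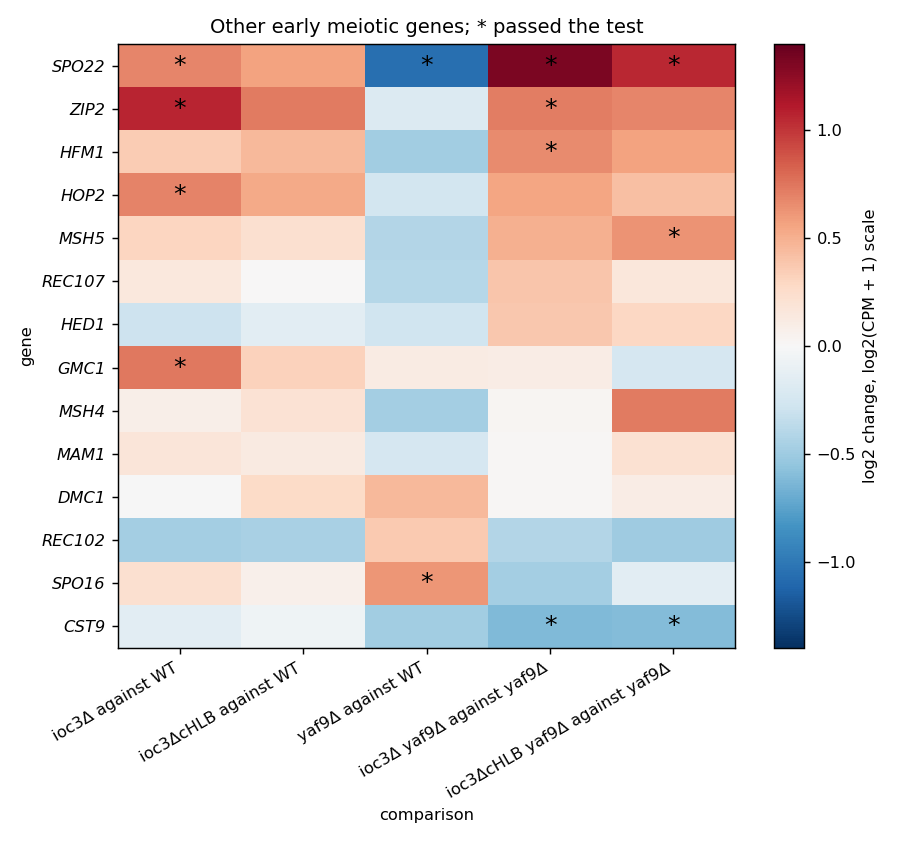
Change of 14 other early meiotic genes (rows) on the log2(CPM + 1) scale (colour) in 5 comparisons (columns), with an asterisk where a gene passed the test. *SPO22* passes in 4 columns and reaches 1.32 in *ioc3*Δ *yaf9*Δ against *yaf9*Δ, while *CST9* is lower in both double mutants.

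Regulators of these genes were measured alongside. Of 15 tested, which include *UME6*, *SIN3*, *RPD3*, *ISW2* and *IME2*, only *IME1*, the activator of early meiotic transcription, was called in any of the 5 comparisons drawn above. *IME1* rose in *ioc3*Δ by 0.69 ± 0.27 (limma adjusted p = 0.0839), from 5.13 ± 0.85 to 9.04 ± 2.56 CPM. It was 1 of 15, in a comparison where 9.04% of all genes were called higher. Its mean in *yaf9*Δ was 5.43 ± 0.91 CPM and in *ioc3*Δ*cHLB* 8.20 ± 2.39 CPM, and it did not pass in either. Among 12 genes of mitotic cohesin and recombination, *XRS2*, a subunit of the break-processing complex, rose in *ioc3*Δ (0.60 ± 0.14, 0.00735). This was 1 of 12, against the same 9.04% of all genes.

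The 9 genes did not vary as a block across the 18 libraries. The correlation of each with the mean of the others, on the centred log2(CPM + 1) scale, was 0.919 for *MEI4*, 0.828 for *HOP1*, 0.728 for *ZIP1*, 0.637 for *REC8* and 0.579 for *NDJ1*, but 0.425 for *SPO13*, 0.343 for *SPO11*, 0.296 for *REC104* and 0.159 for *RED1*. These are descriptions over libraries that share strains and depth, and counting error can lower them for weak genes. Single libraries held 3 to 17 reads of *SPO13*, 11 to 52 of *SPO11* and 16 to 43 of *REC104*. They held 92 to 225 reads of *RED1*, 12 to 81 of *HOP1* and 1 to 33 of *REC8*. Of 5260 other genes with a mean of at least 5 CPM, the most like the mean of the 9 in this measure were *DCG1* (r = 0.93), *SPO22* (0.91), *XRS2* (0.90), *PDR17* (0.90) and *HNT3* (0.90), where the median gene had r = −0.02. *DCG1* had strain means of 10.8 CPM in wild type, 19.5 CPM in *ioc3*Δ, 16.2 CPM in *ioc3*Δ*cHLB*, 6.01 CPM in *yaf9*Δ, 13.9 CPM in *ioc3*Δ*cHLB yaf9*Δ and 15.2 CPM in *ioc3*Δ *yaf9*Δ.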

How the data were processed

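Total RNA from 18 cultures was made into stranded mRNA libraries and sequenced as paired ends. According to the submitters' processing notes and the study's methods, reads were mapped to sacCer3 with TopHat2 2.0.10 and Bowtie2 2.0 and counted per gene with HTSeq. The strand setting of the count is not given in the sources used here. The authors deposited a signal per gene, CPM computed with edgeR 3.6.2 on the effective library size (0.887 to 1.148 of the read total), on a linear scale, replicates not pooled. The table held 5830 genes, and 4 emptied lines were not analysed here. All values were whole multiples of 1 read within 0.01 reads (100%), so reads could be recovered.

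Differences were fitted on log2(CPM + 1) over all 18 libraries with limma 3.58.1 (R 4.3.3), using a trended prior variance. Genes needed at least 1 CPM in at least 3 libraries, 5786 were tested, and p-values were adjusted by Benjamini-Hochberg within each of 11 comparisons. A gene passed at adjusted p under 0.1 and at least 1.5-fold, the study's threshold values. For limma the fold was taken on the log2(CPM + 1) scale. Changes on this scale understate those of weak genes. Alternatives were a pseudocount of 0.25, no filter, median-of-ratios scaling, edgeR 4.0.16 (quasi-likelihood) and DESeq2 1.42.0 on recovered reads, a fit of the compared strains alone, a replicate block, and each library left out. The script was tested on simulated data.

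Replicate numbers came from the sample titles. Same-numbered libraries deviated together (every correlation over 0.1) in 2 of 15 pairs of strains. These were wild type and *ioc3*Δ (0.206, 0.212 and 0.11) and, more strongly, *ioc3*Δ and *ioc3*Δ *yaf9*Δ (0.23, 0.602 and 0.572). Other pairs deviated in opposite directions, such as wild type and *ioc3*Δ*cHLB* (−0.125, −0.472 and −0.636). Replicates of a strain differed beyond counting noise (chi-square per degree of freedom 2.80 to 58.0).

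The genes and gene lists were chosen with earlier results of these data known. Named genes are the 9 genes, *IOC3* and *YAF9*, list members that passed (at most the 4 largest), the 5 genes most correlated with the mean of the 9 genes, and their nearest neighbours. A result of 1 list member is not reported here. Names and coordinates are from the RefSeq annotation of the same build, which matched 5634 genes.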

Additional observations from a re-analysis of the deposited data

How the results depend on the processing

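Of 1393 changes of single genes recomputed under the alternatives, 1361 stayed on the same side of the threshold, 17 lost a call, 15 gained a call and 0 called values changed direction. Estimates that had not passed changed sign in 61 cases, 53 of them with a library left out. The counts of genes called out of 9 that moved were as follows. For *ioc3*Δ*cHLB* against wild type the count was 2, and 0 when only the compared strains were fitted. For *ioc3*Δ *yaf9*Δ against wild type it was 1, but 2 with a pseudocount of 0.25, 2 with edgeR and 3 with DESeq2. DESeq2 gave 1, *NDJ1*, in place of 0 for *ioc3*Δ*cHLB yaf9*Δ against *ioc3*Δ *yaf9*Δ and for the dependence of the truncation on Yaf9. The cause was not tested. DESeq2 gave no adjusted p for *REC8* and *SPO13* in *ioc3*Δ*cHLB* against wild type. With each library left out in turn, the counts ran from 2 to 4 for *ioc3*Δ, from 0 to 2 for *ioc3*Δ*cHLB* and from 1 to 3 for *yaf9*Δ against wild type, from 3 to 4 for *ioc3*Δ *yaf9*Δ against *yaf9*Δ, from 1 to 3 for *ioc3*Δ *yaf9*Δ against wild type, and from 0 to 1 for *ioc3*Δ*cHLB yaf9*Δ against *ioc3*Δ *yaf9*Δ.

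The replicate block left the count of the 9 genes as it was in all 11 comparisons and changed no call of a single gene. The count stayed at 3 for *ioc3*Δ against wild type, strains whose same-numbered libraries deviated weakly together. Over all genes, the number called in *ioc3*Δ*cHLB* was 20 by limma, 19 by edgeR, 45 by DESeq2 and 2 with only the compared strains fitted, and for the dependence of the truncation on Yaf9 it was 7, 0, 30 and 13, and 0 with the block. Other scalings moved the median of all genes by less than 0.05 in every comparison. Depth limits the weakest genes: *SPO13* never exceeded 17 reads in a library and *REC8* never exceeded 33, which limits the precision of their changes.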
